A study of Mus musculus with 2 samples.

Results

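Nonclassical monocytes of the mouse spleen were chosen by the single-cell counts of 4 genes, Ace, Adgre4, Cd300e and Treml4, with limits on the RNA of other cell types. The gate held 621 of the 13258 cells in both libraries, 441 of 6510 in the low-B12 library and 180 of 6748 in the high-B12 library. A cell was a barcode with at least 500 UMIs (unique molecular identifiers, 1 per captured RNA molecule), at least 200 genes and at most 10% of UMIs from mitochondrial genes. A nonclassical cell also had S100a8 and S100a9 below 1% of its UMIs and no UMI of Cd79a, Cd79b or Ncr1. It had at least 1 UMI of Csf1r, at least 2 UMIs summed over Ace, Adgre4, Cd300e and Treml4, and at most 2 summed over Ly6c2, Ccr2, F13a1 and Fn1. Cells with 3 or more UMIs of Cd209a and Clec10a, or 5 or more of the C1q genes, were left out. The levels of these genes describe the choice and are no finding.

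The libraries came from splenocytes that had been frozen alive and were sorted on CD45.2, CD11b and DAPI, 1 library from a condition labelled Low B12 and 1 from a condition labelled High B12. CD45.2 is an allele of the leukocyte antigen CD45, CD11b is the integrin subunit encoded by Itgam, and DAPI is a DNA dye used to mark dead cells. The labels state no genotype, strain, age, B12 dose or number of mice, although the series title places the work in Tet2-deficient blood formation. With 1 library per condition there is no test between conditions, and every interval given is at 95% and covers counting error only.

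Nonclassical, or Ly6C-low, monocytes develop largely from classical Ly6C-high monocytes and crawl along the inner wall of blood vessels, where they take up lipids, particles and immune complexes. Their formation and survival depend on the nuclear receptor Nr4a1 and on signals through the receptor Csf1r, and their crawling uses the integrin LFA-1, whose alpha chain is Itgal. The spleen holds a store of monocytes beside dendritic cells that share several of their genes.

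The libraries held 48884220 (low-B12) and 46994991 UMIs in total. The nonclassical cells had a median of 4740 UMIs and 2044 genes in the low-B12 library and 3824.5 UMIs and 1750 genes in the high-B12 library, and their summed UMIs were 2328746 and 870371. Their median mitochondrial share was 1.99% and 2.85%. Cell barcodes were compared between libraries, and 4 of those that passed the limits occurred in both, none of them nonclassical in both. Scrublet, a doublet caller, marked 8 of the 441 and 3 of the 180 nonclassical cells, which were kept.

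In the high-B12 library nonclassical cells made up a smaller share of the sort. They were 6.77% of all cells (exact binomial interval 6.18 to 7.41) under low and 2.67% (2.30 to 3.08) under high B12, with a ratio of 2.54 (2.13 to 3.04). Among gated monocytes, that is nonclassical, intermediate and classical cells together, the shares were 35.3% (32.6 to 38) of 1251 cells and 21.9% (19.1 to 24.9) of 823 cells, a ratio of 1.61 (1.35 to 1.93). The direction was the same on both bases, and the ratio was smaller among monocytes than among all cells. Classical cells had at least 5 UMIs over Ly6c2, Ccr2, F13a1 and Fn1 and at most 1 over the Ace group, and intermediate cells had at least 2 UMIs of the Ace group and at least 3 of the Ly6c2 group.

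Classical cells were 5.56% and 4.91% of all cells, with an interval of the ratio (0.974 to 1.32) that includes 1. Intermediate cells were 6.88% and 4.62% of all cells, a ratio of 1.49 (1.29 to 1.73). Among gated monocytes, intermediate cells took similar shares (35.8% and 37.9%), while classical cells took 28.9% under low and 40.2% under high B12. When every cell was thinned to 2000 UMIs before gating, nonclassical cells were 387 of 6032 (6.42%) and 162 of 5992 (2.70%), a ratio of 2.37 (1.97 to 2.87). Of thinned gated monocytes they were 51.8% and 38.5%, a ratio of 1.35 (1.12 to 1.63). Of nonclassical cells with at least 2000 UMIs, 309 of 408 and 108 of 147 kept a UMI of Csf1r after thinning. The thinned gate thus also took in cells that were outside the gate before. The shares depend on the sort and on every other cell type in it, and the number of nonclassical monocytes per spleen was not analysed here.

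**Figure D1:**
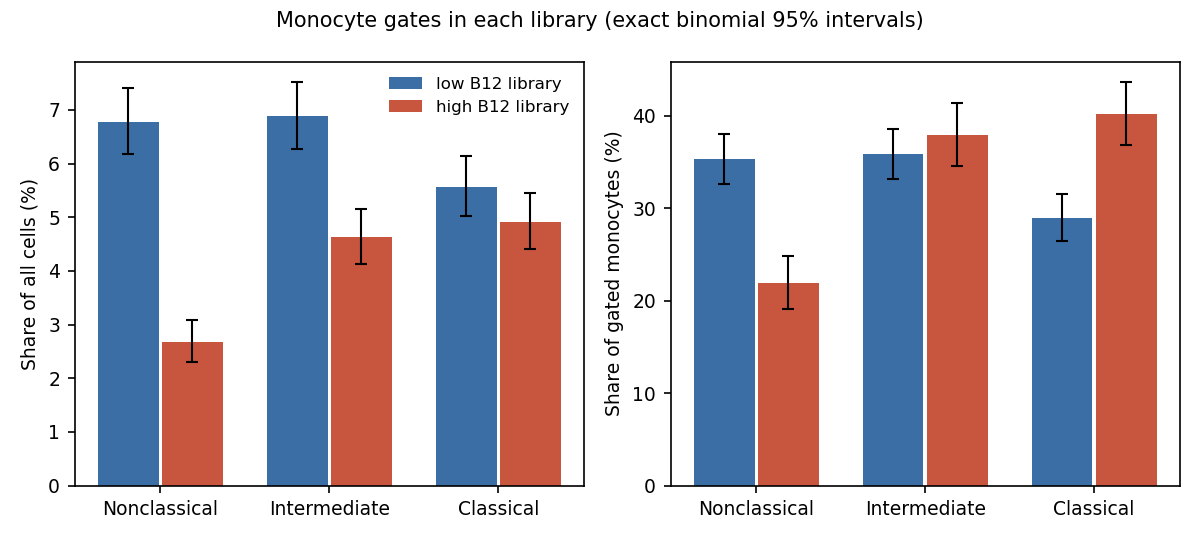
Share of nonclassical, intermediate and classical cells in each library, in percent of all cells (left) and of gated monocytes (right), with exact binomial 95% intervals that cover counting error only. Nonclassical cells stand at 6.77% and 2.67% of all cells, and classical cells at 5.56% and 4.91%.

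The gate was checked against 4 label markers that it did not use, namely Pparg, Fabp4, Cd36 and Eno3. Pparg encodes a lipid-sensing nuclear receptor, Fabp4 a fatty acid carrier, Cd36 a scavenger receptor for oxidised lipids and Eno3 an enolase of glycolysis. Levels are given as CPM, the UMIs of a gene per 1000000 UMIs summed over the cells of a group. Pparg stood at 404 CPM in nonclassical and 4.66 CPM in classical cells of the low-B12 library, and at 302 and 6.41 CPM in those of the high-B12 library. Eno3 stood at 333 against 3.42 CPM and at 227 against 3.21 CPM, in the same order. Cd36 stood at 423 against 9.02 CPM and at 177 against 5.45 CPM. Fabp4 stood at 252 and 183 CPM in nonclassical cells, while classical cells held 3 and 6 UMIs of it. These markers thus separated nonclassical from classical cells in both libraries. Because the gates were cut on genes of the same contrast, this is a description of the groups.

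After thinning to 2000 UMIs, which leaves out 33 shallower nonclassical cells per library, 85.5% and 58.5% of nonclassical cells had a UMI of at least 1 of these 4 genes. The cells left out were 7.48% and 18.3% of the nonclassical cells. Classical cells gave 5.6% and 3.4% at the same depth. B cells, some of which carry Cd36, had a UMI of Pparg in 0.18% and 0.47%, of Fabp4 in 0.059% and 0.47% and of Eno3 in 0.54% and 0.47% of cells. In the whole gate without thinning, Pparg alone had a UMI in 306 of 441 low-B12 cells.

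Genes outside the gate that stood furthest above classical cells included survival, lipid and transcription factor genes. Of 2164 genes outside the gate at 100 CPM or more, ribosomal, mitochondrial and predicted genes included, 78 (3.6%) were at least 4-fold above classical cells in both libraries, and 28 (1.29%) at least 4-fold below. Bcl2, which blocks mitochondrial cell death, was at 342 CPM in nonclassical and 14.9 CPM in classical low-B12 cells, and at 268 and 12.5 CPM in high-B12 cells. Tcf7l2, a transcription factor of the Wnt pathway, was 28.1 times and 29.5 times higher than in classical cells, in the low-B12 and high-B12 library. Itgax, the integrin subunit CD11c, was 27.0 times and 36 times higher. Ikzf3, a zinc finger transcription factor, stood at 201 and 115 CPM against 6.84 and 2.89 CPM in classical cells.

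Several of these genes were nearly absent from classical cells. Slc12a2, an ion cotransporter, stood at 286 and 210 CPM on 4 and 5 classical UMIs, and Vegfc, a growth factor of lymphatic vessels, at 152 and 106 CPM on 3 and 2 classical UMIs. Bcl2a1b and Bcl2a1d, anti-death relatives of Bcl2, stood at 239 and 209 CPM under low and at 218 and 165 CPM under high B12. These paralogs are close copies, so their counts may be divided unevenly between them. Tgm2, a protein cross-linking enzyme, Tgfbr3, a coreceptor of TGF-beta, and Setbp1, a nuclear protein, were also among the 15 genes furthest above.

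Among genes below classical cells, Chil3, a chitinase-like protein of classical monocytes, was 10.3 times and 7.53 times lower. Capg, an actin-capping protein, was 15.7 times and 20.5 times lower, and S100a10, a partner of annexin A2, 11.3 times and 8.88 times lower. Vim, the intermediate filament vimentin, stood at 2591 CPM in classical and 353 CPM in nonclassical cells of the low-B12 library, and at 2339 and 344 CPM in those of the high-B12 library. Wfdc17, a small secreted protein, and Ifi211, an interferon-inducible gene, were in the same group, Wfdc17 at 53.7 and 110 CPM against 768 and 808 CPM.

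The gate was a mixture. A minority of its cells carried much RNA of MHC class II, the molecules that present peptides to CD4 T cells, and little of the lipid and survival genes. Cells in which Cd74, H2-Aa, H2-Ab1 and H2-Eb1 made up at least 2% of UMIs are called MHC class II high here, a limit set after the values were seen. They were 37 of 441 (8.39%, 5.98 to 11.4) under low and 43 of 180 (23.9%, 17.9 to 30.8) under high B12. Between 1.5% and 2.5% of UMIs lay 22 and 15 cells, so the MHC class II high cells are a range and not a separate type by this cut. The median share of these 4 genes over the gate was 0.0576% and 0.256% of UMIs.

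**Figure D2:**
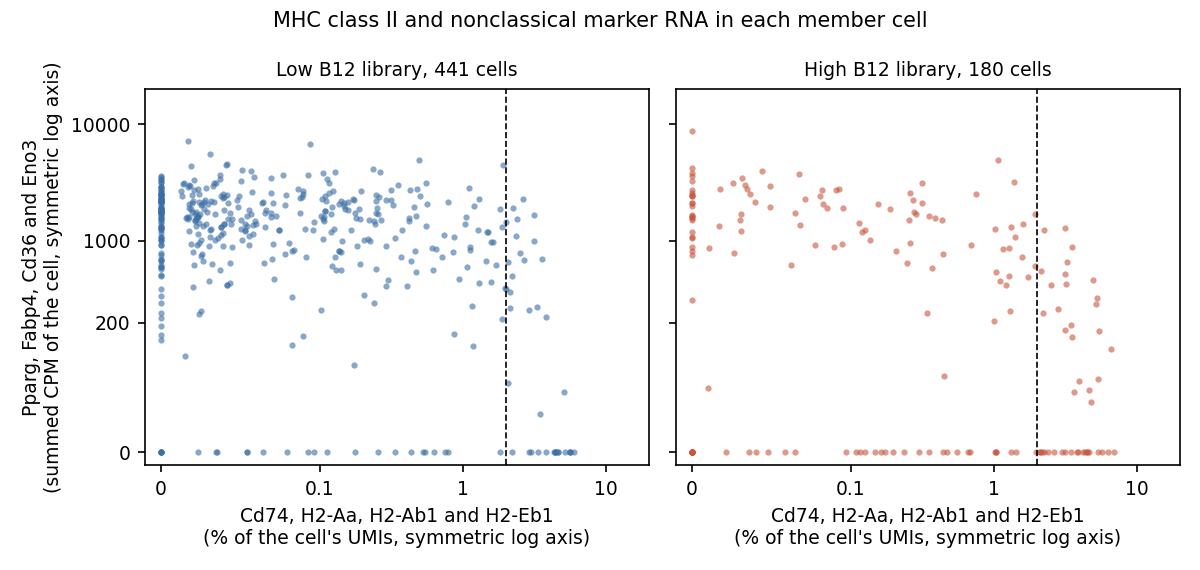
Each point is 1 nonclassical cell, with the share of its UMIs from Cd74, H2-Aa, H2-Ab1 and H2-Eb1 on the horizontal axis and the summed CPM of Pparg, Fabp4, Cd36 and Eno3 on the vertical axis, both symmetric log axes. The dashed line marks 2%, at or above which lie 37 of 441 cells in the left panel and 43 of 180 in the right panel, with 16 and 20 of them at 0 on the vertical axis. The median on that axis is 107 and 92.4 CPM at or above 2%, with single cells up to 2292 and 1289 CPM, and 1541 and 1067 CPM below it.

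As a share of all cells, MHC class II high cells stood at 0.568% (0.400 to 0.783) and 0.637% (0.462 to 0.857), with a ratio of 0.892 whose interval (0.559 to 1.42) includes 1. The rest of the gate was 404 cells (6.21%) and 137 cells (2.03%), a ratio of 3.06 (2.51 to 3.74) of all cells and 1.94 (1.59 to 2.37) of gated monocytes. The difference in share between libraries was thus larger without the MHC class II high cells. In intermediate cells the MHC class II high share was 16.1% and 15.1%, and in classical cells 3.04% and 3.32%, with intervals of both ratios that include 1.

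MHC class II high cells carried RNA of genes known from conventional dendritic cells, which were chosen after their values were seen. Flt3, the receptor that supports dendritic cell development, stood at 131 and 59.2 CPM against 5.5 and 1.8 CPM in the rest of the gate, low-B12 library first. Zbtb46, a transcription factor of conventional dendritic cells, stood at 47.9 and 37.4 CPM against 11.4 and 7.3 CPM. Klrd1, a lectin receptor subunit of NK cells and some dendritic cells, stood at 150 and 112 CPM against 2.5 and 1.8 CPM. Both libraries thus gave the same order. Without thinning, Flt3 had a UMI in 32.4% and 25.6% of MHC class II high cells. It was also seen in 14.1% and 9.29% of intermediate and in 22.7% and 14.5% of classical cells. Klrd1 had a UMI in 29.7% and 27.9% of MHC class II high cells. It was seen in 4.69% and 3.21% of intermediate and in 6.08% and 4.23% of classical cells. Adgrl3, an adhesion receptor, stood at 677 and 1069 CPM against 100 and 151 CPM in the rest.

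The same cells had less of the nonclassical genes that the gate did not use. Pparg stood at 121 and 65.4 CPM against 448 and 440 CPM in the rest of the gate. Itgal stood at 265 and 240 CPM against 1115 and 824 CPM, and Bcl2 at 105 and 90.4 CPM against 379 and 371 CPM. Nr4a1 stood at 281 and 218 CPM against 694 and 683 CPM. Of the genes of the gate, Ace stood at 339 and 349 CPM against 707 and 644 CPM and Cd300e at 38.3 and 34.3 CPM against 344 and 184 CPM. Their median depth was 8935 and 7756 UMIs, against 4695.5 and 3291 UMIs for the rest. On Pparg, Itgal, Bcl2 and Nr4a1, which the gate did not use, the larger group below 2% carried more of the nonclassical genes than the MHC class II high cells in both libraries.

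**Figure D3:**
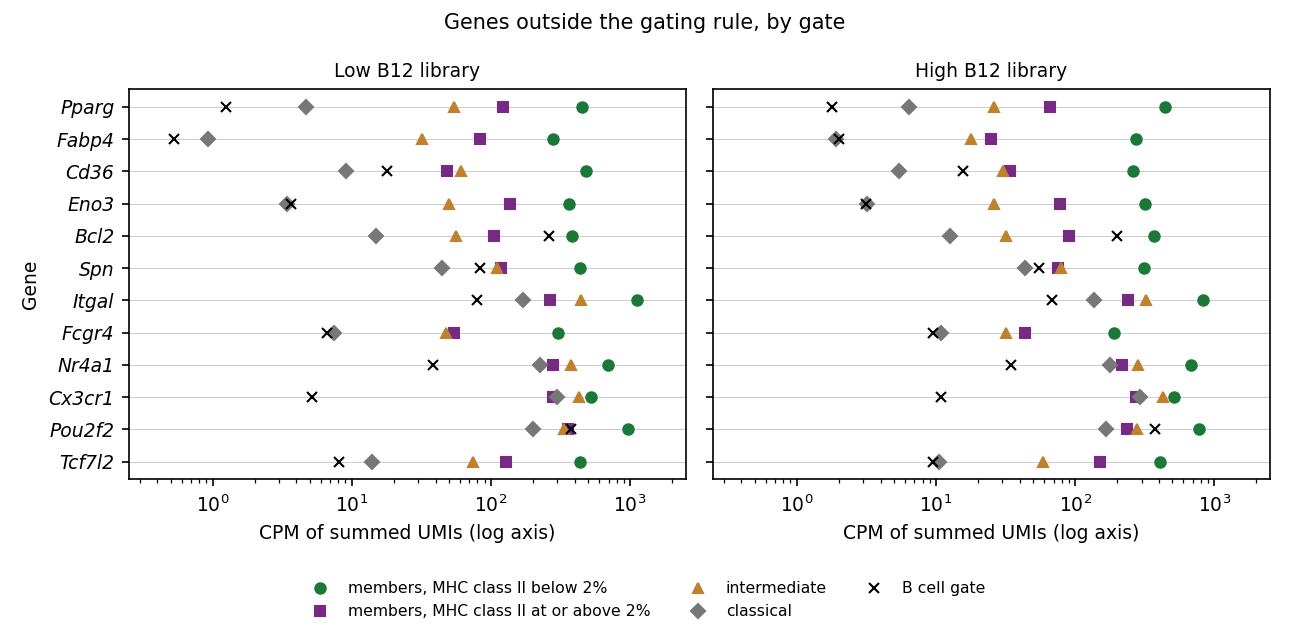
CPM of summed UMIs (log axis) of 12 genes outside the gating rule, for nonclassical cells below and at or above 2% MHC class II UMIs, intermediate, classical and B cells, in each library. Nonclassical cells below 2% lie furthest right for every gene shown, and for Pparg they stand at 448 and 440 CPM while those at or above 2% stand at 121 and 65.4 CPM.

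The limits of the gate were examined at their edges. Cells with 1 UMI of the Ace group, just outside, numbered 24 and 32, and had Pparg at 39.6 and 16.2 CPM. Cells with 2, just inside, numbered 16 and 25, and had Pparg at 124 and 128 CPM and Cd74 at 12516 and 8361 CPM. Cells with 10 or more numbered 289 and 73, and had Pparg at 432 and 355 CPM and Cd74 at 2722 and 7267 CPM. At the other edge, cells with 2 UMIs of the Ly6c2 group, just inside, numbered 29 and 28, with Chil3 at 202 and 396 CPM. Cells with 3, just outside, numbered 21 and 17, with Chil3 at 316 and 324 CPM.

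Between libraries, genes of nonclassical monocytes stood lower in the high-B12 library. Of 6684 genes with at least 50 UMIs over both libraries, 395 (5.91%) were at least 1.5-fold higher and 621 (9.29%) at least 1.5-fold lower in the high-B12 library, and 57.5% were lower by any amount. Scaled instead by the median ratio of these genes, 504 were at least 1.5-fold higher and 462 lower, so the excess of lower genes depends on the scaling. The median log2 ratio of high over low was -0.07. Of 30 nonclassical monocyte genes outside the gate, 26 were lower and 4 higher, 7 were at least 1.5-fold lower, and the median was -0.35. Without MHC class II high cells, 23 were lower and 3 at least 1.5-fold lower, with a median of -0.09 beside -0.03 over all measured genes. Malat1, a nuclear RNA whose share tends to rise in damaged cells, stood at 20055 and 27762 CPM in the same cells and at 8842 and 10495 CPM in classical cells. The median mitochondrial share of these cells was 2.004% and 3.07%, and that of classical cells 2.05% and 2.02%. A mitochondrial limit of 5% kept 399 of 441 low-B12 and 121 of 180 high-B12 nonclassical cells. At that limit the median of the list over the whole gate was -0.32, while the part of Malat1 was not tested. In that group 9.23% of all genes were at least 1.5-fold lower and 52.6% lower by any amount.

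Some nonclassical genes had a difference close to 0 without the MHC class II high cells, and others stayed lower. The genes given here were grouped by these values, and no division of the whole list was tested. Cells below 2% MHC class II still differed between libraries. Of these, 25 of 404 and 37 of 137 had no UMI of Pparg, Fabp4, Cd36 or Eno3. At 2000 UMIs, 88.7% and 70.1% of them had a UMI of at least 1 of these genes. Similar CPM thus does not mean a like mixture of cells. Pparg was at 404 and 302 CPM over the whole gate, 1.34-fold (1.16 to 1.54) lower in the high-B12 library, and at 448 and 440 CPM without those cells, a fold of 1.02 (0.88 to 1.18). Fabp4 was 1.38-fold lower over the gate and 1.01-fold (0.84 to 1.22) without them. Bcl2 was 1.28-fold lower and 1.02-fold (0.87 to 1.20) without them, and Nr4a1 was at 638 and 511 CPM over the gate and 1.02-fold (0.91 to 1.14) lower without them. Their intervals without these cells include a fold of 1. Cx3cr1, the fractalkine receptor, was 1.16-fold lower over the gate and 1.02-fold without them.

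Cd36 stood lower on both counts. It was at 423 and 177 CPM over the gate, 2.39-fold (2.01 to 2.85) lower in the high-B12 library, and at 481 and 260 CPM without MHC class II high cells, 1.85-fold (1.55 to 2.22) lower. Fcgr4, an activating Fc receptor for IgG, was at 271 and 136 CPM, 1.995-fold (1.64 to 2.45) lower, and 1.61-fold (1.30 to 2.0) lower without them. Cd9, a tetraspanin, was at 399 and 184 CPM, 2.17-fold lower, and 2.08-fold (1.71 to 2.55) lower without them. Spn, the sialoglycoprotein CD43, was at 396 and 224 CPM, 1.77-fold lower, and 1.41-fold (1.20 to 1.67) lower without them. Itgal was at 1001 and 609 CPM, 1.64-fold (1.49 to 1.81) lower, and 1.35-fold (1.22 to 1.499) lower without them.

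Of the genes of the gate, whose levels were set in part by the choice, Cd300e, an activating receptor of nonclassical monocytes, was at 303 and 129 CPM, and Ace, the angiotensin-converting enzyme, at 657 and 535 CPM. Treml4, a receptor that binds dead cells, was at 299 and 231 CPM, Adgre4, an adhesion receptor, at 1156 and 1050 CPM, and Csf1r at 695 and 604 CPM. In thinned cells Cd300e had a UMI in 43.9% and 17.7% of nonclassical cells and in 0.2% and 0.0% of B cells, and Cd36 in 49.5% and 25.2% of nonclassical cells. Pparg was seen in 50.2% and 34.7% of thinned nonclassical cells, and in 53.1% and 44.9% of those below 2% MHC class II.

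Depth differed between libraries, so cells of a like depth were compared. Cells of 4000 to under 8000 UMIs numbered 251 and 51, of which 6 and 12 were MHC class II high. In these Cd36 stood at 503 and 282 CPM, Cd300e at 384 and 216 CPM and Pparg at 442 and 383 CPM. For these genes the order of the libraries was that of the whole gate. Fabp4 stood at 280 and 289 CPM in the same cells, the other order, and in cells of 2000 to under 4000 UMIs Nr4a1 stood at 631 and 872 CPM. Among cells of 8000 UMIs or more, 22 of 50 and 21 of 34 were MHC class II high.

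**Figure D4:**
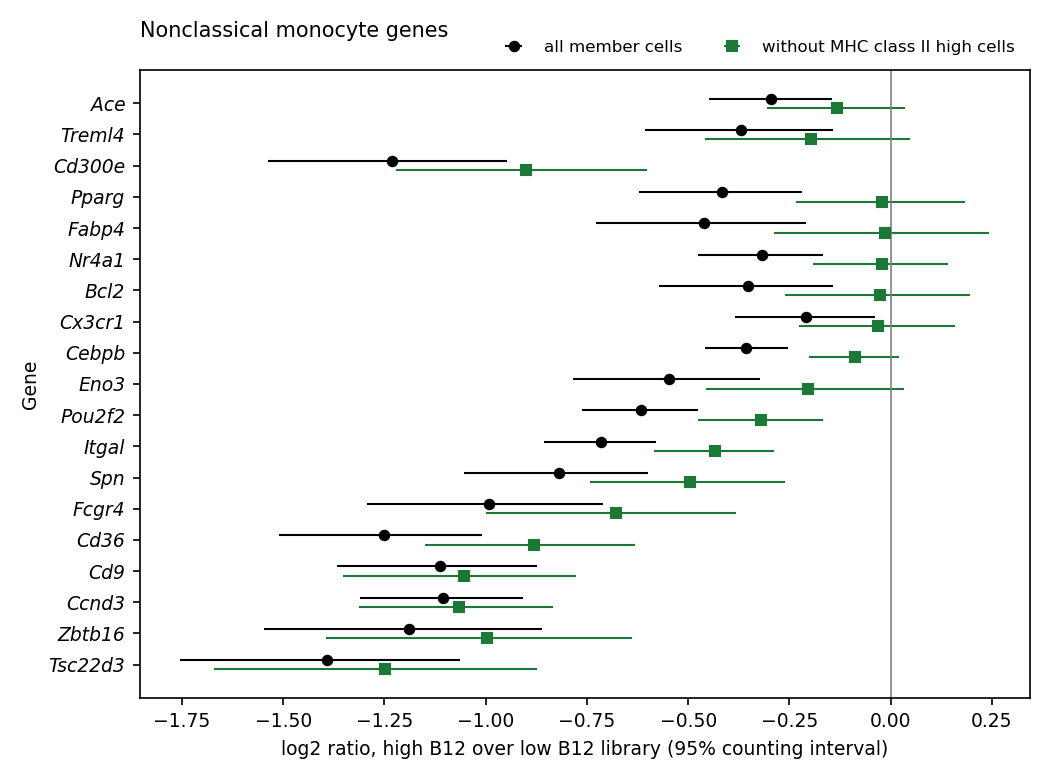
log2 ratio (high over low B12) of CPM for genes of nonclassical cells, over the whole gate (circles) and without MHC class II high cells (squares), with 95% counting intervals. Pparg, Fabp4, Nr4a1, Bcl2 and Cx3cr1 lie between -0.03 and -0.01 without these cells, while Cd36 lies at -0.88, Cd9 at -1.05 and Tsc22d3 at -1.25.

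On the GRCm38 build in GENCODE M21, Ace lies at chr11:105967945-105989964 on the plus strand and Cd300e at chr11:115051917-115062177 on the minus strand. Pparg lies at chr6:115360951-115490399 (plus), Cd36 at chr5:17781690-17888801 (minus) and Fcgr4 at chr1:171018920-171029761 (plus). Spn, at chr7:127132232-127137823 (minus), and Itgal, at chr7:127296260-127335138 (plus), are both on chromosome 7. The intervals are those of whole genes, exons and introns together.

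Receptors of adhesion and trafficking, which crawling monocytes use, stood mostly lower in the high-B12 library over the whole gate. Of 24 measured, 18 were lower and 8 at least 1.5-fold lower, beside 57.5% and 9.29% of all measured genes, with a median log2 ratio of -0.39. Without MHC class II high cells the same number, 18, was lower, beside 52.6% of all genes. In that group 2 were at least 1.5-fold lower, near the 9.23% of all genes, with a median of -0.18. Among those at 50 CPM or more, Spn and Itgal had the largest differences downward over the whole gate, and Cxcr4, the receptor for Cxcl12, was at 189 and 117 CPM. Icam1, the ligand of LFA-1, stood the other way at 43.4 and 71.2 CPM. Classical cells had a median of -0.13 over the same genes.

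Among lipid genes, 24 of 35 were lower and 4 at least 1.5-fold lower, near the 57.5% and 9.29% of all measured genes, with a median of -0.23. With the MHC class II high cells left out, 3 were at least 1.5-fold lower and 4 at least 1.5-fold higher. These counts stood near the 9.23% and 8.41% of all genes in that group, with a median of -0.07. Apoe, the lipoprotein apolipoprotein E, stood at 3168 and 2043 CPM, Abcg1, a cholesterol exporter, at 136 and 82.7 CPM, and Srebf2, the regulator of cholesterol synthesis, at 98.8 and 56.3 CPM. Cd36 had the largest difference of the list. Abcg1 was lower in classical cells too, at 62.2 and 35.3 CPM, and Apoe was not, at 1745 and 1990 CPM.

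Among 28 Fc and checkpoint receptors the differences ran both ways, with 5 at least 1.5-fold higher and 3 at least 1.5-fold lower in the high-B12 library, beside 5.91% and 9.29% of all measured genes. Lilrb4a, an inhibitory receptor, stood at 104 and 186 CPM, and Lilra5, an activating relative, at 90.2 and 42.5 CPM. Clec4a2, an inhibitory lectin receptor, stood at 29.6 and 54.0 CPM. The median of the list was -0.16.

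Transcription factors of monocyte subsets showed 22 of 32 lower, 2 of them at least 1.5-fold, beside 57.5% and 9.29% of all measured genes. The median was -0.17, and -0.06 without MHC class II high cells. Pou2f2, an octamer-binding factor, stood at 880 and 573 CPM and Klf13 at 484 and 317 CPM. Klf4, a factor needed for monocyte formation, stood at 700 and 704 CPM, and Klf2, a factor of endothelial and leukocyte quiescence, at 907 and 788 CPM. Classical cells had a median of -0.18 over the same factors. Cebpb, a factor that nonclassical monocytes need, stood at 1476 and 1152 CPM.

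Glucocorticoid-responsive genes held large differences both ways. Tsc22d3, whose protein is known as GILZ and damps inflammation, stood at 246 and 93.1 CPM, 2.64-fold (2.09 to 3.37) lower in the high-B12 library, and 2.39-fold (1.83 to 3.18) lower without MHC class II high cells. Zbtb16, a zinc finger factor, stood at 221 and 96.5 CPM, and Ddit4, an inhibitor of mTOR signalling, at 55.8 and 21.8 CPM. Il1r2, a decoy receptor for interleukin-1 that neutrophils also carry, stood the other way at 21.5 and 63.2 CPM, 2.94-fold (1.97 to 4.41) higher. However, Il1r2 was seen in only 13 and 12 cells, and 5 cells held 72% and 80% of its UMIs. In MHC class II high cells it stood at 60.7 and 18.7 CPM, the opposite order. Of 17 genes 13 were lower, 5 at least 1.5-fold, beside 57.5% and 9.29% of all measured genes. The median was -0.22, and with cells thinned to 2000 UMIs it turned to 0.029. In classical cells the list had a median of -0.39, and Tsc22d3 stood at 283 and 151 CPM.

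Other genes that stood far lower by the size rule were of varied function. Pbx3, a homeobox factor, stood at 164 and 60.9 CPM, Ccnd3, the cyclin D3 of cell cycle entry, at 594 and 276 CPM, and Tgfbr3 at 192 and 85.0 CPM. Smpdl3b, a membrane-bound phosphodiesterase, stood at 197 and 91.9 CPM, Bag3, a chaperone partner, at 189 and 93.1 CPM, and Vcl, the adhesion protein vinculin, at 110 and 56.3 CPM. Ccl5, a chemokine, stood at 153 and 70.1 CPM, but 5 cells held 86.5% and 62.3% of its UMIs. The size rule was passed by 97 genes downward and 47 upward.

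MHC class II genes stood higher in the high-B12 library. Over the gate 12 of 13 were higher, all 12 at least 1.5-fold, with a median log2 ratio of 1.17, beside 42.5% of all measured genes higher. H2-Ab1 stood at 1132 and 3176 CPM, and Cd74, the invariant chain, at 3407 and 8408 CPM. Without MHC class II high cells, which were cut on 4 of these genes, 10 were higher, beside 47.4% of all genes. There 4 were at least 1.5-fold higher and 2 at least 1.5-fold lower, beside 8.41% and 9.23% of all genes. The median was 0.28 without those cells, beside 0.10 in classical cells. In that group Cd74 stood at 1582 and 2659 CPM, and Ciita, the master regulator of the class II genes, at 19.3 and 47.3 CPM on 39 and 26 UMIs. H2-Oa, an editor of peptide loading, was higher over the gate, at 25.3 and 72.4 CPM, but held 15 and 1 UMIs without those cells. Empty droplets, barcodes of 10 to 100 UMIs that show free RNA, held Cd74 at 5551 and 3357 CPM, the opposite order.

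Type I interferon response genes stood mostly higher in the high-B12 library, with a median of 0.24. Of 36 genes 29 were higher and 11 at least 1.5-fold, beside 42.5% and 5.91% of all measured genes. Without MHC class II high cells 27 were higher, 11 at least 1.5-fold, and the median was 0.35. In that group 47.4% of all genes were higher and 8.41% at least 1.5-fold. Ifi27l2a, an interferon-induced membrane protein, stood at 569 and 1024 CPM, 1.80-fold (1.65 to 1.96) higher. Slfn8 stood at 29.2 and 51.7 CPM, Slfn5 at 35.2 and 57.4 CPM and Ifih1, a sensor of viral RNA, at 42.1 and 70.1 CPM. Classical cells showed 31 of the 36 higher, beside 40.9% of all measured genes, with a median of 0.22. Interferon gamma response genes were divided, with 5 of 12 higher and a median of -0.02.

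Inflammatory and NF-kB genes were 25 of 32 higher, 10 at least 1.5-fold, beside 42.5% and 5.91% of all measured genes. The median was 0.32, 0.45 without MHC class II high cells and 0.096 with no UMI of the Ly6c2 group allowed, while classical cells had -0.02. Ier3, an early stress gene, stood at 20.6 and 58.6 CPM, and the chemokine Ccl3 at 63.6 and 119 CPM. Ccl4, its relative, stood at 24.5 and 123 CPM, but was seen in only 23 and 20 cells, and 5 cells held 67.3% of its high-B12 UMIs. Among 30 immediate early and heat shock genes, 20 were higher and 2 at least 1.5-fold, near the 5.91% of all genes, with a median of 0.06. With the MHC class II high cells left out, 9 were at least 1.5-fold higher, beside 8.41% of all genes, with a median of 0.19. Egr1, an early growth response factor, was 3.04-fold (2.54 to 3.66) higher, at 96.6 and 294 CPM, and seen in 88 and 61 cells. Atf3, a stress factor, stood at 394 and 609 CPM, while classical cells held it at 686 and 685 CPM.

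**Figure D5:**
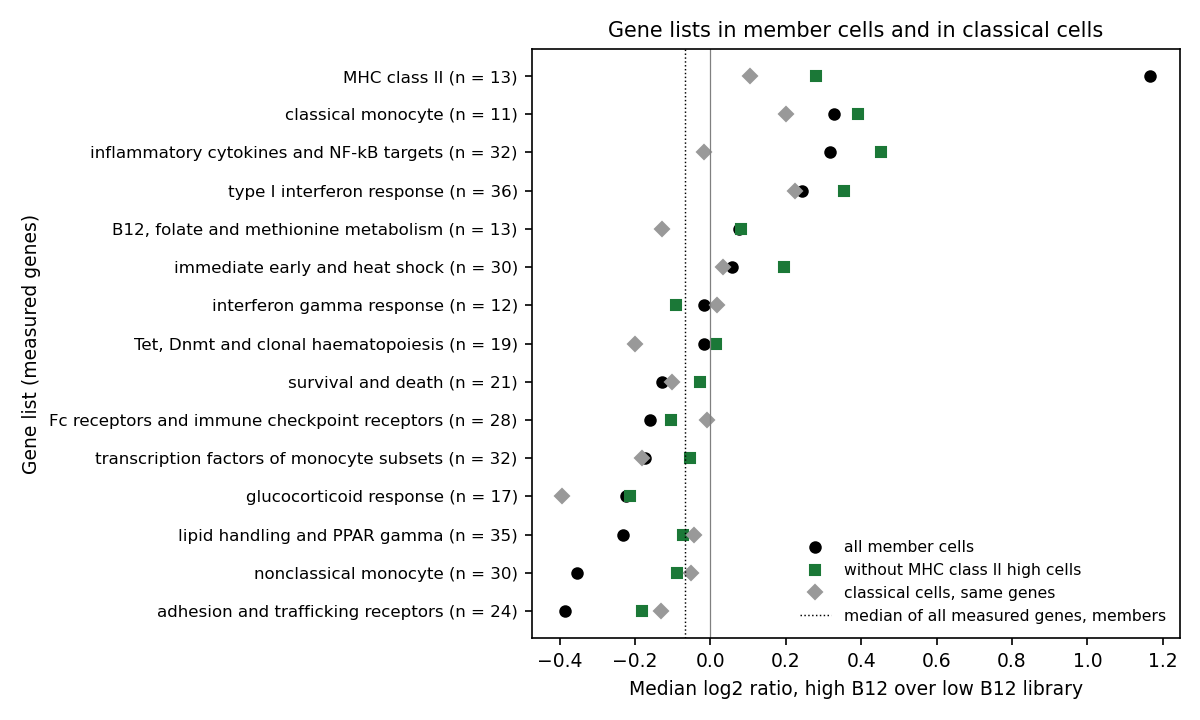
Median log2 ratio, high-B12 over low-B12 library, of 15 gene lists with the number of measured genes, over all nonclassical cells, without MHC class II high cells, and in classical cells for the same genes. The dotted line at -0.07 is the median of all measured genes, and MHC class II lies at 1.17 over the whole gate and at 0.28 without these cells.

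Genes of classical monocytes outside the gate stood slightly higher in high-B12 nonclassical cells, with 7 of 11 higher, 3 at least 1.5-fold and a median of 0.33. Of all measured genes 42.5% were higher and 5.91% at least 1.5-fold higher. Chil3 stood at 64.4 and 138 CPM, and Hp, haptoglobin, at 126 and 180 CPM. Lyz2, lysozyme, stood at 4333 and 3334 CPM. The direction of this list changed under 2 settings: with no UMI of the Ly6c2 group allowed its median was -0.02, and with cells thinned to 2000 UMIs it was -0.16. Under the other settings the median stayed positive, at 0.10 with an Ace group sum of 4 or more and 0.45 with a mitochondrial limit of 5%. The cause was not tested. Classical cells themselves had a median of 0.20 over these genes.

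Of 21 survival genes, 7 were higher and 14 lower, none of them past 1.5-fold, with a median of -0.13. Of all measured genes 42.5% were higher and 57.5% lower, with 5.91% and 9.29% past 1.5-fold. Pmaip1, a promoter of cell death, stood at 211 and 299 CPM. Genes of B12, folate and methionine metabolism gave 7 higher and 6 lower of 13, beside the same shares of all measured genes. Mtr, the B12-dependent methionine synthase, stood at 31.8 and 34.5 CPM with a ratio interval of 0.68 to 1.68, and Mthfd1l, a mitochondrial folate enzyme, at 72.6 and 37.9 CPM. Tet2, the DNA demethylation enzyme of the series title, stood at 269 and 275 CPM, a ratio of 1.02 (0.88 to 1.19), and Jak2 at 130 and 79.3 CPM. The Tet, Dnmt and clonal haematopoiesis list gave 9 higher and 10 lower of 19, beside 42.5% and 57.5% of all measured genes.

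Markers of other cells were summed in the gate. Neutrophil markers, none of the 18 at 0, summed to 589 CPM under low and 1658 CPM under high B12, and in empty droplets to 29625 and 82390 CPM. S100a8, whose level the gate limited, stood at 132 and 456 CPM, and B cells at 2000 UMIs had a UMI of it in 14.3% and 40.4%. Csf3r, the receptor of granulocyte colony-stimulating factor, stood at 111 and 259 CPM, at 122 and 98.4 CPM in classical cells, at 47.7 and 75.9 CPM in B cells and at 243 and 569 CPM in empty droplets. The part of neutrophil RNA in the inflammatory, classical and Csf3r differences was not tested.

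Of the other lists, B cell markers summed to 228 and 192 CPM with 3 of 14 at 0, namely Cd79a and Cd79b, barred by the gate, and Fcmr. NK cell markers summed to 52.4 and 145 CPM with Ncr1, barred by the gate, and Eomes at 0, and T cell markers to 24 and 11.5 CPM with Lef1 at 0. Basophil, mast cell and eosinophil markers were 7 of 11 at 0, and platelet markers 6 of 10, Pf4 among them. Erythroid markers summed to 243 and 131 CPM with Klf1 and Car1 at 0. Plasmacytoid dendritic cell markers summed to 582 and 523 CPM, with the defining gene Siglech at 0. Macrophage markers summed to 3490 and 2568 CPM, most of it Apoe, with Timd4, Marco and Gpnmb at 0. Hmox1, a haem-degrading enzyme on that list, stood at 78.6 and 241 CPM, but 5 cells held 73.8% of its high-B12 UMIs.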

How the data were processed

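Single-cell 3′ RNA of sorted spleen cells was analysed in 2 libraries, 1 per condition. Each deposited matrix gives whole UMI counts without normalization. Per the file headers Cell Ranger 4 made these counts, while the submitters' processing notes name version 2.1.1. The kit was a 3′ v2 kit per the labels. All barcodes were deposited, 1256219 and 1053362. The genome build is not given in the sources used here. GENCODE M21 holds 32235 of the 32285 gene IDs and gave GRCm38 positions.

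UMIs were summed per gate and library and scaled to CPM, and log2 ratios had 0.5 UMI added. Ratios carry exact conditional binomial intervals and shares exact Clopper-Pearson intervals. The intervals and ratios were tested on simulated counts drawn independently for each gene. That check does not cover genes whose UMIs lie in few cells. Genes with at least 50 UMIs were measured. Scrublet ran in scanpy 1.11.5, with numpy 2.4.6 and scipy 1.17.1 in Python 3.11.15. No source names the strand used in counting, so overlapping genes may share reads.

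Named genes were up to 12 each way with the largest ratio at 100 CPM or more whose interval excludes 1.25, up to 15 above and 10 below classical cells at 4-fold or more in both libraries, up to 4 per list at 50 CPM or more, and a set list of markers. Mitochondrial, ribosomal, haemoglobin, receptor segment and predicted genes, Xist and genes of the gate were left out of the size rules. The members, lists and alternatives were chosen with earlier results of these data known, and the MHC class II limit and the share among gated monocytes were added after seeing the data.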

Additional observations from a re-analysis of the deposited data

How the results depend on the processing

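No paired analysis was possible because each condition has 1 library. The ratio of shares, low over high, was 3.53 with a mitochondrial limit of 5%, which kept 399 and 121 nonclassical cells. It was 3.08 with an Ace group sum of 4 or more, 3.06 without MHC class II high cells and 1.61 among gated monocytes, beside 2.54. Genes at least 1.5-fold higher numbered 645 with every cell weighted the same, 874 after thinning, 3247 with at least 1 UMI and 48 with at least 200 UMIs, beside 395, and genes lower numbered 2533 with at least 1 UMI and 150 with at least 200, beside 621. Without MHC class II high cells, list medians became -0.088 (nonclassical), -0.18 (adhesion), 0.28 (MHC class II) and 0.19 (immediate early). The classical list became 0.10 with cells weighted the same, -0.16 thinned, 0.15 without Scrublet calls, 0.45 at the 5% limit, 0.10 at an Ace sum of 4 or more and -0.021 at a Ly6c2 sum of 0. The glucocorticoid list became 0.029 thinned, and the inflammatory list 0.096 at a Ly6c2 sum of 0. Genes that changed sign were Chil3 (-0.021) at a Ly6c2 sum of 0, C5ar1 (-0.19) at an Ace sum of 4 or more, Hbb-bs (0.94) without Scrublet calls, and Runx2 (0.0024) and H2-Oa (-1.49) without MHC class II high cells. With cells weighted the same Tcf4 (0.050), Runx2 (0.051) and Nr4a1 (0.016) changed sign, as did H2-T23 (-0.12), Bcl2a1a (-0.14) and Ndufs8 (-0.14) after thinning. The cause was not tested. None of the 24 genes of the size rule changed sign under any of these settings, and 8 of them moved by over 1.5 times without MHC class II high cells. Depth limits genes under 50 UMIs and the 180 high-B12 cells.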
